A study of Mus musculus with 6 samples.

Results

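The antigen presentation genes considered here are 10 mouse genes that load peptides onto major histocompatibility complex (MHC) molecules or encode those molecules: H2-K1, H2-D1, B2m, Tap1, Tap2, Psmb8, Psmb9, Cd74, H2-Aa and H2-Eb1. Each gene was read from a probeset annotated with exactly 1 gene symbol, the probeset of highest mean level being used where a gene had several. Of the 10 genes, 8 had such a probeset, among 22180 genes in all with one, and each of the 8 was read by 1 probeset. The only probeset listing H2-D1 and the only one listing Cd74 each also list another gene, so neither gene has a value here. All 8 measured genes passed the filter on dim genes and are among the 16635 genes tested.

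RNA came from total brain of 6 mice of 91 days, 1 Mouse Gene 2.0 ST array each. The knockout group, 3 arrays, carried Thy1Cre-ERT2-EYFP, a Cre made active by tamoxifen and expressed with a yellow fluorescent marker from the neuronal Thy1 promoter, and 2 floxed alleles of HuR (HuRf/f), the RNA-binding protein encoded by Elavl1. The control group, 3 arrays, carried the same transgene and 1 floxed allele (HuRf/+), and is labelled wild type by the submitters. Both groups received tamoxifen at 10 and 11 weeks of age, and mice of either sex were used. Since the Cre is driven in neurons, other brain cells are meant to keep HuR by design, and the controls can also lose 1 allele in neurons. In which cells HuR was lost was not tested here. Values are intensities on a linear scale in the deposited table; levels below are normalized log2(intensity + 1), and a log2 fold change is knockout minus control on that scale.

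MHC class I molecules show peptides from inside the cell to CD8 T cells. The peptides are cut by the proteasome, whose inducible subunits include Psmb8 and Psmb9. They are carried into the endoplasmic reticulum by the transporter made of Tap1 and Tap2. There they bind a class I heavy chain such as H2-K1 or H2-D1 paired with the light chain B2m. MHC class II molecules, such as those with the chains H2-Aa and H2-Eb1, show peptides from endosomes to CD4 T cells, and Cd74 is the invariant chain that guards their groove. In healthy brain, neurons have little class I, and class II belongs mainly to border macrophages and to activated microglia; both sets of genes respond to interferon.

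Promoter sequences of 5 members are shown because class I and class II genes are known to be driven through boxes near their starts. These letters let a reader see where 7 short motifs match. Exact short strings were searched and not whole boxes, so a missing match does not show that a box is absent. Each runs 5′ to 3′ on the gene's strand from 250 bases before to 50 after a RefSeq start in build GRCm38.p6, and 8 of the 10 members had such a window. H2-K1 lies at chr17:34000298-34000597 on the minus strand, B2m at chr2:122147437-122147736 on the plus strand, Tap1 at chr17:34187306-34187605 on the plus strand, H2-Aa at chr17:34287774-34288073 on the minus strand and H2-Eb1 at chr17:34305617-34305916 on the plus strand. For H2-K1 2 windows were listed, and the first is used. It lies inside the annotated gene (chr17:33996012-34000619), so the matches and positions given for H2-K1 hold for that window only. Capitals mark matches, on either strand, to any of 7 motifs, in which N is any base. The first is the CCAAT box, bound by the factor NF-Y. The cyclic AMP half-site is TGACG, part of the boxes of both classes. The NF-kB site, with its middle base free, is GGGGANTCCCC. Interferon elements were searched as GAAANNGAAA and as GAANNGAAA, and the gamma-activated site as TTCNNNGAA. The last motif is the TATA box, TATAAA.
H2-K1: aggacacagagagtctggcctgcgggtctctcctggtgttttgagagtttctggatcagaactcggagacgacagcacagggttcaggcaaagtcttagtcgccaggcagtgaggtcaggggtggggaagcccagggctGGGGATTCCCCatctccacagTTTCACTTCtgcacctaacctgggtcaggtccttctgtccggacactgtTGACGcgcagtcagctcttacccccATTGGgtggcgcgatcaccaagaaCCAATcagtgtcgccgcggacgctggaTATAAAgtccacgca
B2m: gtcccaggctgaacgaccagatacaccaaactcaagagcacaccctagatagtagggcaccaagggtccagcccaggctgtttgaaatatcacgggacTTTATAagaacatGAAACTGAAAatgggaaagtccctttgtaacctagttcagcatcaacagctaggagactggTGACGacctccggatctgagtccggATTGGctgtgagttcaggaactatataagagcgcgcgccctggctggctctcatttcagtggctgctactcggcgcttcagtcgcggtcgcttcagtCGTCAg
Tap1: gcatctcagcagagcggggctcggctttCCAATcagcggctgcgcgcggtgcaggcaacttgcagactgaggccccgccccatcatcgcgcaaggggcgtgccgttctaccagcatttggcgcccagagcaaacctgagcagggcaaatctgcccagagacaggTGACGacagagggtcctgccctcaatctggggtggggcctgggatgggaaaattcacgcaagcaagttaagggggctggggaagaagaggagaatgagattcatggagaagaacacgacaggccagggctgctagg
H2-Aa: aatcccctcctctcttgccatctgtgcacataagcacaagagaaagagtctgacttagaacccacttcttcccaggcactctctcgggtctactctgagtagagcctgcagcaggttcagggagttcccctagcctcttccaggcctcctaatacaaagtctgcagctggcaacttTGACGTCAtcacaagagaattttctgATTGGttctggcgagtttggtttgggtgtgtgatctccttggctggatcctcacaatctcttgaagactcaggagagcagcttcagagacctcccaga
H2-Eb1: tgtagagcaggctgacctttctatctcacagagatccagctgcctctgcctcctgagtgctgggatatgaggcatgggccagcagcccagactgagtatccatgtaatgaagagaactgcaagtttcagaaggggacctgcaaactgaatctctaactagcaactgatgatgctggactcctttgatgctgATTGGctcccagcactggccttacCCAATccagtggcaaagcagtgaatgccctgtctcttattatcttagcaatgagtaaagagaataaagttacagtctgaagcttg

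CCAAT was found in 7 of the 8 member windows, all but that of Psmb8, and in 37.4% of the 32851 windows of that length in the table. TGACG was found in 6 of the 8, all but Psmb8 and H2-Eb1, and in 20.8% of all windows. In H2-Aa it stands as the full palindrome TGACGTCA, which matches once on each strand. The windows of Tap1 and Psmb9 overlap, and their CCAAT and TGACG matches are the same bases (chr17:34187334-34187338 and chr17:34187470-34187474), so each of these counts takes 1 stretch of DNA for both genes. GGGGANTCCCC was found in H2-K1 and in H2-D1. Over the whole table it was found in 16 windows, or 0.0487%, a count that includes those of H2-K1 and H2-D1. Both H2-K1 and H2-D1 also held GAANNGAAA, found in 7.52% of all windows, and B2m held GAAANNGAAA, found in 3.44%. The windows of H2-K1 and H2-D1 aligned over 239 bases, 211 of them identical (88.3%), so the 2 genes resemble each other in their promoters. The matches that both hold are therefore not independent of each other. Tap1 and Psmb9 are divergent neighbours: 225 bases lie between the annotated genes, and their windows share 275 bases, so the Tap1 sequence above also holds most of the Psmb9 window. Of the 8, Psmb8 alone held TTCNNNGAA, found in 8.3% of all windows. TATAAA was found in H2-K1, H2-D1, B2m and Psmb8 and in 13.6% of all windows. Relative to the table's start it lies at 35 in H2-K1, at -26 in H2-D1 and at -237 in Psmb8. In B2m it lies on the opposite strand. A match is a description of letters and not a site of binding.

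Knockout 3 and control 3 differed from the remaining arrays. Xist, which coats and silences an X chromosome, read 7.68 in knockout 3 and 7.69 in control 3 (log2), against 2.72 and 2.78 in the other knockouts and 2.52 and 2.79 in the other controls. Mice of either sex were used, and no sex is given for single arrays. A difference between the arrays numbered 3 and the others therefore cannot be told apart from one by sex. Elavl1, the targeted gene, had log2 levels of 8.22, 8.18 and 8.27 in knockout and 8.27, 8.01 and 8.53 in control brain, so the groups overlapped (log2 fold change -0.05, standard error 0.15; its sign turned with arrays centred on their median, without the arrays numbered 3 and without control 3). The sources used here do not place its probeset relative to the floxed exons, so it checks no label. Single animals are not identified in the labels, and every p-value below speaks only of the spread among these 6 arrays. Among marker lists for the cell types that whole brain can hold, all 7 neuronal markers were measured, and those of T and NK cells and B cells were dim: every measured one lay below the middle of all genes by level, as did all 6 border macrophage markers, against 1 of 7 for microglia. None of the 5 red blood cell genes had a probeset of 1 symbol.

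None of the 8 members passed the test between knockout and control, and in each of them the groups overlapped. The smallest unadjusted p was 0.138 (limma, adjusted p = 1.0; 0 of 8 had an unadjusted p under 0.05). Over all tested genes, 0% passed the adjusted threshold of 0.05, 1.7% had an unadjusted p under 0.05 (0.932% higher and 0.763% lower in knockout) and 5.7% had groups that did not overlap (3.14% with knockout above and 2.55% with knockout below control). The members' median log2 fold change was 0.042, against 0.013 over all tested genes. Of the 8 members 5 had values above 0, as did 54.8% of all genes. In whole tissue, fewer cells of a type and less RNA per cell cannot be told apart. The median was -0.099 without control 3, with 2 of 8 members above 0, -0.019 without knockout 1 and -0.003 without knockout 2, against 0.134 without knockout 3 and 0.109 without control 1. It was 0.013 without control 2.

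**Figure D1:**
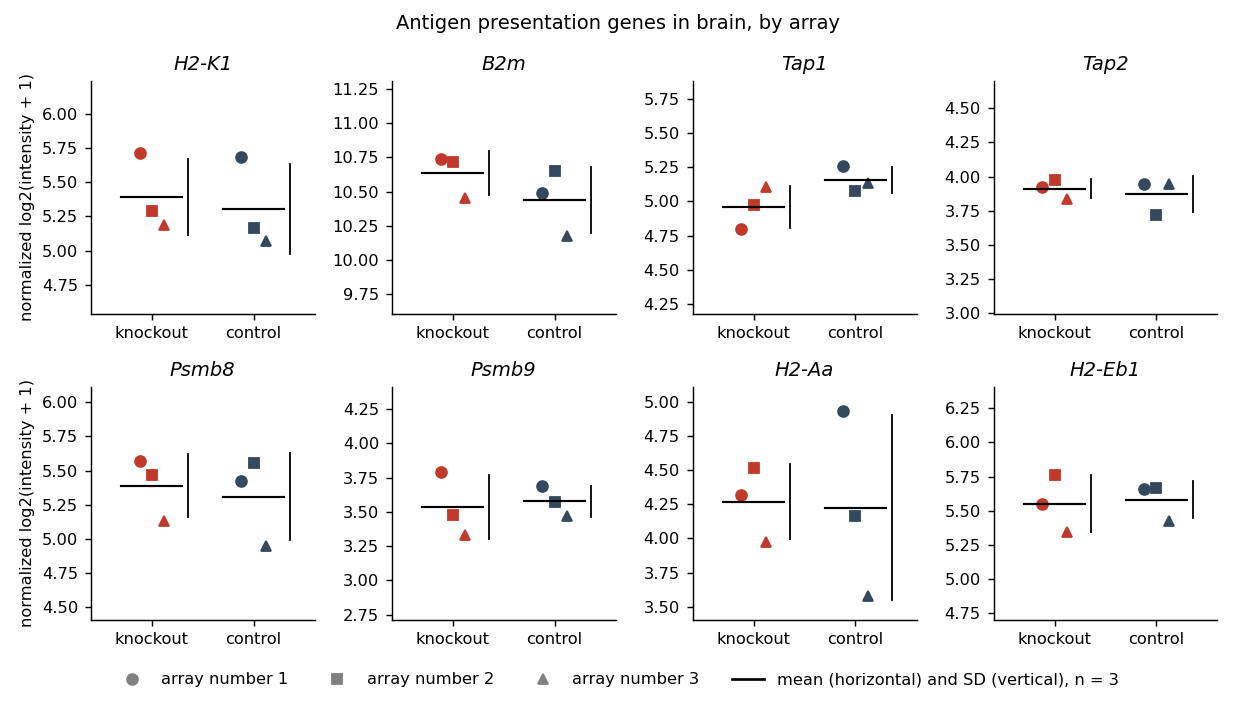
Normalized log2(intensity + 1) of the 8 measured members in the 3 knockout and 3 control arrays. The marker shape gives the array number, the horizontal line the mean and the vertical line the SD; every panel spans the same log2 distance, so spreads can be compared. The groups overlap in every panel, and the triangles (arrays numbered 3) are the lowest of their group for H2-K1, B2m, Psmb8, Psmb9, H2-Aa and H2-Eb1.

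Neither class I chain passed the test; the log2 fold change was 0.20 for B2m and 0.09 for H2-K1. B2m, the light chain shared by all classical class I molecules, had log2 levels of 10.74, 10.72 and 10.45 in knockout and 10.49, 10.65 and 10.18 in control brain. Knockouts 1 and 2 were the 2 highest arrays of all, while knockout 3 lay below controls 1 and 2. As deposited, these were intensities of 1706, 1683 and 1371 in knockout and 1456, 1622 and 1151 in control brain. The mean log2 level was 10.64 ± 0.16 in knockout and 10.44 ± 0.243 in control brain (SD, n = 3 each), a fold of 1.15 with a 95% confidence interval from 0.894 to 1.47 (limma unadjusted p = 0.236, adjusted p = 1.00). B2m stood at percentile 99.3 of all genes by level, so this value is not limited by dimness. Without control 3 the log2 fold change of B2m was 0.067, against 0.20 with all arrays, without knockout 1 it was 0.147, and without knockout 3 it was 0.29.

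H2-K1, a classical class I heavy chain, had log2 levels of 5.71, 5.29 and 5.19 in knockout and 5.68, 5.16 and 5.07 in control brain. In both groups the array numbered 1 was highest and the array numbered 3 lowest, and the groups covered nearly the same range. The log2 fold change was 0.09 with a standard error of 0.20, and the interval ran from 0.764-fold to 1.48-fold. It was -0.068 without knockout 1, -0.029 without control 3 and 0.278 without control 1. Class I heavy chain genes are near copies of each other, so the probeset of H2-K1 may also bind their transcripts and its value is uncertain in that respect.

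Of the genes that supply peptides, Tap1 had the smallest p of the members, and its value lay below 0. Tap1, a subunit of the peptide transporter, had log2 levels of 4.799, 4.97 and 5.10 in knockout and 5.26, 5.08 and 5.14 in control brain. Knockouts 1 and 2 were the 2 lowest arrays, and knockout 3 lay above control 2. The mean log2 level was 4.96 ± 0.153 in knockout and 5.16 ± 0.0933 in control brain (SD, n = 3 each), a fold of 0.871 with an interval from 0.716 to 1.06 (limma unadjusted p = 0.138, adjusted p = 1.00). Its partner Tap2 was dimmer and varied least of the members, with log2 levels of 3.92, 3.97 and 3.84 in knockout and 3.95, 3.72 and 3.95 in control brain. The log2 fold change of Tap2 was 0.04, with an interval from 0.857-fold to 1.23-fold, and -0.035 without control 2. Without knockout 1 the Tap1 value was -0.12, the one nearest to 0 among the arrays left out, and without control 2 it was -0.24.

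The inducible proteasome subunits among the members lay close to 0. Psmb8, which replaces a catalytic subunit of the standard proteasome when interferon is present, had log2 levels of 5.57, 5.47 and 5.13 in knockout and 5.43, 5.55 and 4.95 in control brain. The array numbered 3 was lowest in each group, and the other 4 lay within a narrow band. The log2 fold change was 0.08 with a standard error of 0.19; dropping control 3 gave -0.100, dropping knockout 1 gave -0.009, and dropping knockout 3 gave 0.21. Psmb9, another inducible subunit, had log2 levels of 3.79, 3.48 and 3.33 in knockout and 3.69, 3.58 and 3.47 in control brain. These are close to the level of 3.28 under which genes were left out, so Psmb9 was the dimmest member. Its log2 fold change was -0.04, with an interval from 0.769-fold to 1.22-fold, and its sign turned without knockout 3 (0.057), without control 1 (0.012) and without both arrays numbered 3 (0.002). For the divergent neighbours Tap1 and Psmb9, whose windows share 275 bases, the log2 fold changes were -0.20 and -0.04; their difference was not tested.

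Neither class II chain passed the test. H2-Aa, an alpha chain, had log2 levels of 4.32, 4.51 and 3.98 in knockout and 4.93, 4.17 and 3.58 in control brain. Both the highest and the lowest of the 6 arrays were controls, and the 3 knockouts lay between them. The SD was 0.272 in knockout and 0.675 in control brain (n = 3 each), and the log2 fold change was 0.04 with a standard error of 0.32, the widest of the members, with an interval from 0.613-fold to 1.73-fold. Leaving out control 3 gave -0.278, leaving out control 1 gave 0.395, leaving out knockout 3 gave 0.19, leaving out knockout 2 gave -0.079, and leaving out both arrays numbered 3 gave -0.131. H2-Eb1, a beta chain, had log2 levels of 5.55, 5.76 and 5.35 in knockout and 5.66, 5.66 and 5.42 in control brain. The highest and the lowest of its 6 arrays were knockouts, with an SD of 0.206 in knockout and 0.137 in control brain. Its log2 fold change was -0.03 with a standard error of 0.14 and an interval from 0.781-fold to 1.23-fold, and its sign turned with arrays centred on their median (0.021) and without knockout 3 (0.074), control 1 (0.009) or control 2 (0.013).

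H2-Ab1, the beta chain that pairs with H2-Aa, is no member and is given beside it. Its log2 levels were 4.97, 5.09 and 4.86 in knockout and 5.90, 5.53 and 4.31 in control brain. The highest, the second highest and the lowest of the 6 arrays were all controls, as the SDs of 0.115 in knockout and 0.835 in control brain show. Its log2 fold change was -0.27 with a standard error of 0.37; it was -0.745 without control 3, -0.687 without both arrays numbered 3 and 0.054 without control 1. A difference in spread between the groups was not tested.

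**Figure D2:**
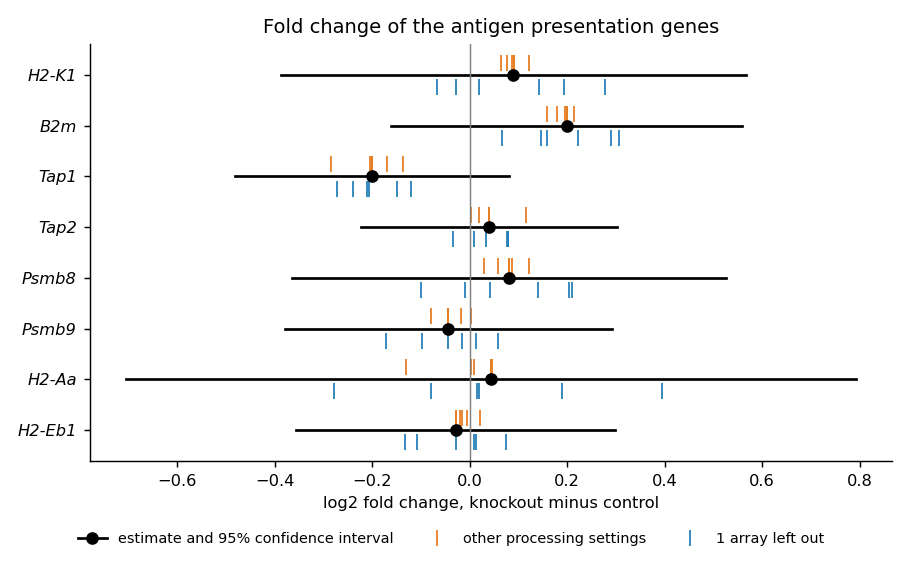
Log2 fold change of each member, knockout minus control, with its 95% confidence interval from limma (black); orange ticks give the 9 other processing settings, where the gene was tested, and blue ticks the 6 comparisons with 1 array left out. Every interval includes 0; the ticks of B2m all lie above 0 and those of Tap1 all below 0, while those of the other 6 genes lie on both sides.

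The intervals set the size of change that these arrays leave possible. Over the 8 members the 95% interval had a half-width between 0.26 (Tap2) and 0.75 (H2-Aa) on the log2 scale, against a median of 0.328 over all genes. A change of 1.5-fold in either direction lay within the interval of 1 member, H2-Aa, and a rise of 2-fold within that of none of the 8. Differences inside these intervals remain possible. Each interval covers 1 gene without adjustment for the number of genes tested. It is therefore no detection limit at the adjusted threshold. With the replicate number fitted as a block, as described next, the median half-width over all genes was 0.24.

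Arrays of the same number were compared with each other as well, because their deviations from the group means correlated (r of 0.314, 0.367 and 0.752 for numbers 1, 2 and 3). Only number 3 stood apart. Across numbers 1 and 2 the r values were higher than within them, at 0.401 (knockout 2 with control 1) and 0.373 (knockout 1 with control 2). A pairing within numbers 1 and 2 is thus not shown. Within numbers 1, 2 and 3, knockout minus control was 0.253, 0.064 and 0.278 for B2m. H2-K1 had 0.027, 0.125 and 0.117. Tap1 had -0.461, -0.106 and -0.032. These 3 of the 8 members kept 1 direction over all 3 numbers, as did 24.9% of all genes. H2-Aa changed direction, with -0.611, 0.348 and 0.393. With the replicate number as a block, the smallest p of the members was that of B2m (limma unadjusted p = 0.0713, adjusted p = 0.984), and 0 of 8 passed; over all genes 0% passed the adjusted threshold with the block, and 4.85% had an unadjusted p under 0.05.

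The levels also varied with array number. The difference between the arrays numbered 3 and the other 4 was larger than that between genotypes in 6 of the 8 members, close to its share of 72.4% among all genes. All but Tap1 and Tap2 were lower in the arrays numbered 3, and 48.8% of all genes were. The mean of the arrays numbered 3 minus that of the others was -0.703 for H2-Aa, -0.465 for Psmb8, -0.335 for both B2m and H2-K1, -0.273 for H2-Eb1 and -0.233 for Psmb9, against 0.093 for Tap1 and 0.0004 for Tap2. The median size of this difference was 0.304 over the members and 0.174 over all genes, while that of the genotype difference was 0.062 and 0.075. Beside these values, all 7 microglia markers were lower in the arrays numbered 3 (median -0.221), as were all 6 border macrophage markers (-0.471), whereas all 5 tested endothelial markers (1.26) and all 7 neuronal markers (0.355) were higher; their part in the members' levels was not tested. Each group holds 1 such array, so genotype and array number are balanced.

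**Figure D3:**
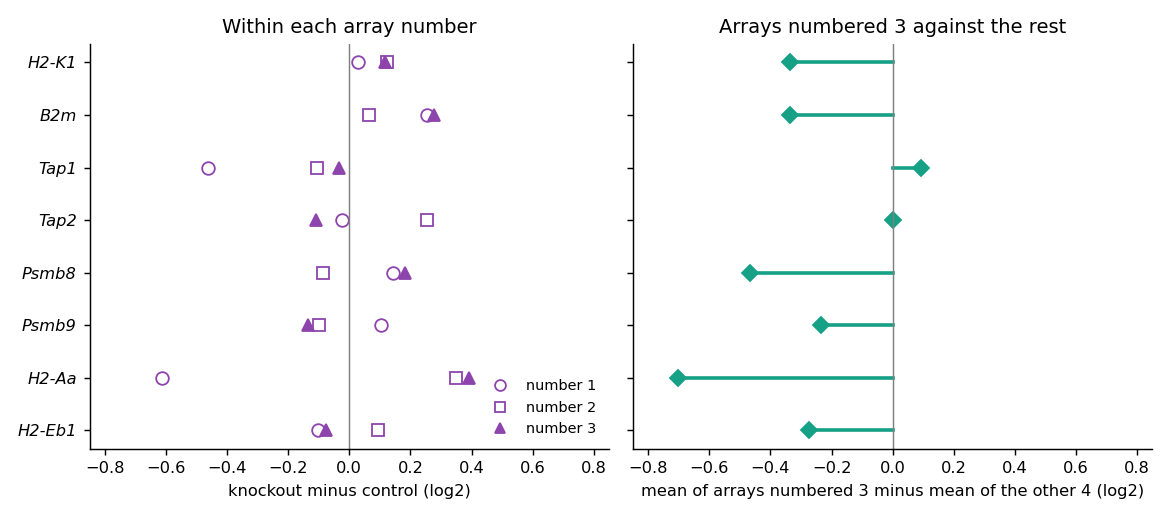
Left, knockout minus control on the log2 scale for each member within array numbers 1 (open circle), 2 (open square) and 3 (filled triangle). Right, mean of the 2 arrays numbered 3 minus mean of the other 4. B2m and H2-K1 lie above 0 and Tap1 below 0 for every number on the left, and 6 of 8 members lie below 0 on the right, from -0.233 to -0.703.

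Among 61 other genes of the pathway, 52 were tested, and 0 passed the adjusted threshold or an unadjusted p of 0.05 (limma); 30 had values above 0 and 22 below, and their median log2 fold change was 0.04. Groups did not overlap in 4 of the 52, against 5.7% of all genes. These were Calr, Ifngr2 and Cd80, higher in knockout, and Irf1, lower; Ifngr2, a chain of the interferon gamma receptor, was singled out after its values were seen. Cd80, a costimulatory ligand for T cells, had log2 levels of 3.77, 3.72 and 3.88 in knockout and 3.56, 3.62 and 3.54 in control brain. All 3 knockouts lay above all 3 controls, by little and at a dim level. The log2 fold change of Cd80 was 0.21 with a standard error of 0.10 (limma unadjusted p = 0.0719, adjusted p = 1.00). The other costimulation genes with the smallest p were the adhesion molecule Icam1, at -0.09, and Cd40, at -0.12 (0.041 without knockout 2 and 0.014 without control 3).

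Of 16 tested regulators of MHC genes, 9 had values above 0 and 7 below. Ciita, the coactivator that switches on class II genes, had log2 levels of 4.07, 3.998 and 4.13 in knockout and 3.83, 3.71 and 4.05 in control brain. Knockouts 1 and 3 lay above every control, and knockout 2 lay below control 3. The log2 fold change of Ciita was 0.21 with a standard error of 0.12 (limma unadjusted p = 0.134, adjusted p = 1.00), beside values of 0.04 and -0.03 for the class II members H2-Aa and H2-Eb1. Nfyb, a subunit of the factor that binds the CCAAT box, was at 0.20, and Irf1, an interferon-induced transcription factor for class I genes, at -0.14, with 4.02, 3.97 and 3.95 in knockout and 4.13, 4.14 and 4.09 in control brain. The Irf1 levels thus stood apart by group, at an unadjusted p of 0.173 in limma (adjusted p = 1.00).

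The remaining lists were spread around 0. Of 11 tested other class I genes, 5 had values above 0 (median -0.06), with H2-T24 at 0.18, the lipid-presenting Cd1d1 at -0.15 and H2-Q1 at -0.18 (0.007 without control 1). Of 6 peptide loading genes, 5 lay above 0 (median 0.077), with the chaperones Canx at 0.13 and Calr at 0.08 and the peptide-trimming Erap1 at 0.14. Proteasome partners had 4 of 7 above 0 (median 0.031), with the activator subunits Psme2 at 0.15 and Psme3 at 0.05 and the standard catalytic subunit Psmb6 at -0.05; Psmb6 turned positive with arrays centred on their median (0.017) and without both arrays numbered 3 (0.026). Other class II genes had 5 of 7 tested above 0 (median 0.099), with H2-Oa at 0.12 and H2-Ob at 0.19, the chains of a molecule that restrains peptide exchange. Several of these values moved with single arrays. H2-Ob was 0.019 without control 3 and 0.413 without control 2, and H2-Oa was 0.051 without knockout 1 and 0.21 without control 3. Psme2 was 0.042 without knockout 1 and 0.355 without knockout 3, and Erap1 was 0.031 without knockout 1 and 0.236 without control 1. Cd1d1 was -0.04 without knockout 1 and -0.286 without knockout 3, and H2-T24 was 0.088 without knockout 2 and 0.276 without knockout 1.

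**Figure D4:**
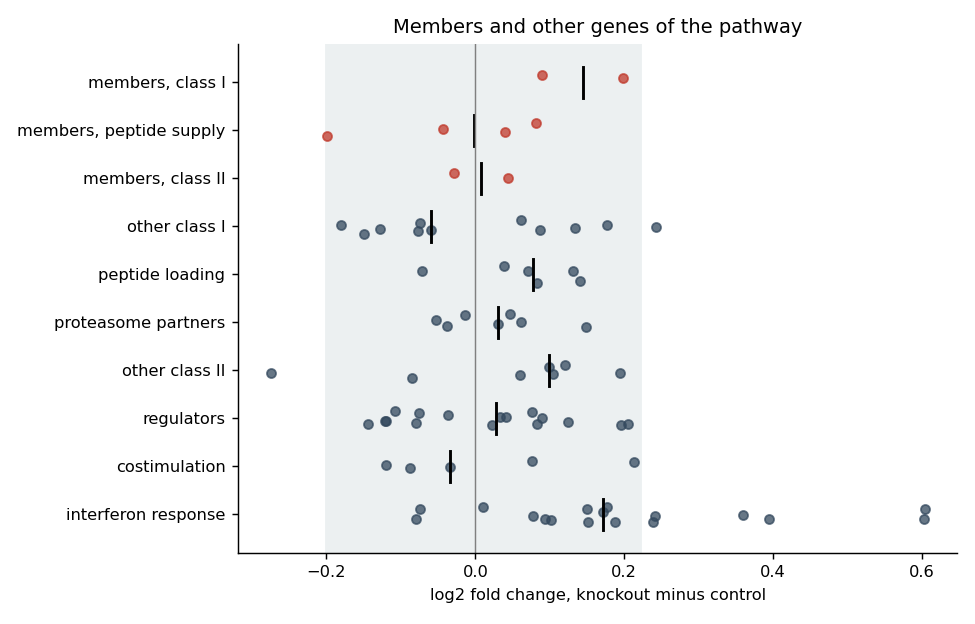
Log2 fold change, knockout minus control, of each tested member (red) and of each tested gene of the other lists (dark), with the list median as a black bar; points are shifted up or down at random for visibility. The grey band spans the 5th to the 95th percentile of all tested genes, from -0.2 to 0.223. All 8 members lie within it, Tap1 and B2m nearest to its edges. Bst2, Ifit1, Igtp, Oasl2, Gbp7 and Iigp1 of the interferon response genes lie to its right, as does H2-T10 of the other class I genes (0.24). H2-Ab1 of the other class II genes lies to its left (-0.27).

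Interferon-responsive genes, which share regulators with these members, had 15 of 17 tested genes above 0, against 54.8% of all genes. Their median was 0.171, against 0.013 over all genes, and 0 passed the adjusted threshold. The 2 below 0 were Ifit3 (-0.08) and Irf7 (-0.07). This list was chosen with earlier results of these data known, so its counts are a description and no independent test. Bst2, a tether of budding virions, stood at 0.60 (standard error 0.15), the GTPase Igtp at 0.39 and Oasl2 at 0.36. Of that list 4 genes had an unadjusted p under 0.05, all with higher levels in knockout, against 0.932% of all genes in that direction and 0 of the 8 antigen presentation members.

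Of the 10 members, 8 lie on chromosome 17, inside the MHC region, with 7 of these measured; B2m lies on chromosome 2 and Cd74 on chromosome 18. Between H2-K1 and H2-D1, at chr17:33996012-35267497 in GRCm38.p6, 65 tested genes belonged to none of the antigen presentation lists. Of these neighbours 43 had values above 0 and 22 below, with a median of 0.047, close to the 0.042 of the members, and 0 passed. Those with the smallest p were the heat shock protein Hspa1b at 0.55, with a standard error of 0.24, the transcription factor Pbx2 at 0.25 and the cytokine Tnf at 0.22, with limma unadjusted p values of 0.0543, 0.0677 and 0.0713 (adjusted p = 1.00 each). Hspa1b was at 0.843 without knockout 3 and at 0.942 without both arrays numbered 3.

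Cell type markers that could carry class II expression were read beside the members. The summed intensity of the 7 measured microglia markers ran from 644 to 857 in knockout and from 667 to 866 in control brain, and their median log2 fold change was -0.01, with 0 passing. P2ry12, a receptor of homeostatic microglia, averaged a log2 level of 7.49 in knockout and 7.70 in control brain. The 6 border macrophage markers summed to 89.8 to 148 in knockout and 86.1 to 119 in control brain, with a median log2 fold change of 0.143 that was -0.01 without knockout 2 and 0.328 without knockout 3; the mannose receptor Mrc1 averaged 4.98 in knockout and 4.58 in control brain. The 5 measured dendritic cell markers had a median of -0.001, with 2 above and 3 below 0. Their sums were 765, 722 and 433 in knockouts 1, 2 and 3, against 879, 901 and 514 in the controls of the same numbers. The knockout sum was lower within all 3 numbers, as it also was for microglia, although the ranges overlapped. Microglia sums were 857, 820 and 644 in knockout, against 866, 846 and 667 in control brain. Most of each dendritic sum came from the lectin Cd209a, at 685, 629 and 304, against 798, 821 and 403. P2ry12 gave 206, 208 and 138, against 246, 250 and 138, a wider gap than the microglia sum within numbers 1 and 2. Of the 7 microglia markers, 3 had log2 fold changes above 0 and 4 below. Flt3, a growth factor receptor of the dendritic lineage, averaged 5.57 in knockout and 5.22 in control brain. Cd209a averaged 8.98 in knockout and 9.33 in control brain and was singled out after its values were seen. Its level, from the brighter of 2 probesets, stood at percentile 96.2, against 25.1 to 56.8 for the other measured dendritic markers. Whether this probeset reads dendritic cells in whole brain was not tested. With the replicate number as a block, Flt3 and Cd209a had limma unadjusted p values of 0.0154 and 0.00909, and Mrc1 0.0316, with an adjusted p of 0.984 each. The part of these markers in the members' levels was not tested.

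T and NK cell markers (6 measured) summed to 67.6 to 76.9 in knockout and 63.7 to 72.9 in control brain, and 3 of them were under the filter. Cd3e, a chain of the T cell receptor complex, averaged 3.29 in both groups, at the level of the filter. The 4 measured B cell markers summed to 30.8 to 33.5 in knockout and 30.3 to 38.0 in control brain, with Cd79a averaging 3.39 in knockout and 3.35 in control brain. Endothelial markers (6 measured) summed to 157 to 367 in knockout and 165 to 337 in control brain, with the tight junction gene Cldn5 averaging 4.43 in knockout and 4.38 in control brain. Neuronal markers (7 measured) summed to 10842 to 14513 in knockout and 10443 to 14756 in control brain, with the synaptic gene Snap25 averaging 11.84 in knockout and 11.80 in control brain. The ranges of the groups overlapped in each of these sums; within array numbers, the knockout sum was lower in 1 of 3 for border macrophage, T and NK cell and neuronal markers and in 2 of 3 for B cell and endothelial markers. No probeset in the lists reads 0, so an absent cell type would show as a dim value and not as 0.

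The genes whose levels followed the members most closely over the 6 arrays were sought by Pearson correlation. The mean profile of H2-K1 and B2m was followed most closely by Dpy19l1 (r = 0.995), Smyd4 (0.994), Tbc1d22a (0.990), Hnrnpc (0.987) and Mrfap1 (0.987). The mean profile of H2-Aa and H2-Eb1 was followed by Serping1 (r = 0.996), Fmn2 (0.994), Lamp1 (0.994), Ivns1abp (0.993) and Folh1 (0.992). With 6 arrays, 302 genes passed r = 0.9 against the first profile and 783 against the second, and all 10 genes named were lower in the arrays numbered 3, so these values describe the arrays and carry no test.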

How the data were processed

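Total RNA from the brains of 6 mice was measured on Affymetrix Mouse Gene 2.0 ST arrays after TRIzol extraction and labelling of 150 ng, per the labels' protocols. The authors deposited linear intensities of 41340 probesets, made with MAS5 per the submitters' processing notes. Version, background correction and scaling are not stated in any source used here. Precision is limited by the number of arrays.

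Values were transformed as log2(intensity + 1) and quantile normalized, since array medians differed by 0.119. Of the probesets, 23521 had 1 gene symbol, 1814 several and 16005 were not annotated. Genes under percentile 25 of mean level were left out. The genotypes were tested by limma 3.58.1 in R 4.3.3 (lmFit and eBayes, two-sided) with Benjamini-Hochberg adjustment over 16635 genes at 0.05. The fit was tried on simulated data with independent noise in each array. That simulation lacks the shared deviations of same-numbered arrays, so it does not check the fit in their presence. The table holds 0 columns of samples not used. Promoter windows are RefSeq's (GRCm38.p6); 16523 tested genes matched its gene table. The middle base of the NF-kB motif was left free after a search with that base fixed had been seen. Plots used matplotlib 3.10.9 in Python 3.11.15.

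Same-numbered arrays deviated from their group means together (r of 0.314, 0.367 and 0.752 for numbers 1, 2 and 3), over the limit set for pairing; the pairing comes from this check and no label, and control 1 also correlated with knockout 2 at 0.401. The fit without pairs is the reported one.

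The members and lists were chosen with earlier results of these data known. Named genes were the members, the 3 of smallest p in each list, the first marker of each cell type, the 5 genes most like each profile, Elavl1 and Xist. Alternatives covered normalization, pseudocount, filter, probeset rule, moderation, pairing and arrays left out.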

Additional observations from a re-analysis of the deposited data

How the results depend on the processing

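No member passed the adjusted threshold of 0.05 in any of the 15 alternatives (limma, smallest adjusted p = 0.932), and of 117 member values under them 102 kept their sign. B2m (0.067 to 0.306) and Tap1 (-0.284 to -0.12) kept theirs throughout. Signs turned with arrays centred on their median for H2-Eb1 (0.021), Elavl1 (0.014) and Psmb6 (0.017), and without both arrays numbered 3 for Psmb9 (0.002), H2-Aa (-0.131), Elavl1 (0.058) and Psmb6 (0.026). With 1 array left out, the values ran from -0.068 to 0.278 for H2-K1, -0.035 to 0.078 for Tap2, -0.100 to 0.210 for Psmb8, -0.172 to 0.057 for Psmb9, -0.278 to 0.395 for H2-Aa, -0.132 to 0.074 for H2-Eb1, -0.745 to 0.054 for H2-Ab1, -0.381 to 0.007 for H2-Q1, -0.287 to 0.041 for Cd40, -0.153 to 0.069 for Psmb6 and -0.180 to 0.080 for Elavl1. The members' median ran from -0.099 to 0.134, and the number of members above 0 from 2 to 7. Above the 50th percentile 5 members were tested, 3 of them above 0, because 3 are dimmer.

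The adjusted count over all genes was 0 in every alternative run. Genes with an unadjusted p under 0.05 numbered 282, against 465 without the filter, 88 above the 50th percentile, 806 with the replicate block, 854 without both arrays numbered 3 and 163 to 574 with 1 array left out. Genes whose groups did not overlap numbered 948, against 1506 without the filter and 455 above the 50th percentile. They numbered 5775 without both arrays numbered 3 and 1834 to 3522 with 1 array left out. More or fewer genes, and fewer arrays, shift these counts of groups without overlap by construction. The replicate block changed no call at the adjusted threshold. At an unadjusted p under 0.05 the block gave 4.85% of all genes, against 1.7% without it. Among the 65 tested neighbours in the MHC region it gave 5, against 0. Of the 5 dendritic markers it gave 2, Flt3 higher and Cd209a lower in knockout, against 0. Border macrophage markers had 1 of 6, against 0. Interferon response genes had 5 of 17, against 4, and the members had 0 of 8 in both fits. The number of arrays, 3 in each group, limits the precision, and Psmb9 lies close to the filter.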
